A study of Mus musculus with 6 samples.

Results

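The genes described here encode the machinery that fuses, divides and removes mitochondria: the mitofusins Mfn1 and Mfn2, Opa1, Dnm1l, the adaptors Fis1 and Mff, the kinase Pink1 and the mitophagy receptors Bnip3, Bnip3l and Fundc1. They were taken from the count table by symbol and are 10 of its 27179 genes. No cut on their values was used, but earlier results of these data were known when they were chosen. All 10 were among the 12800 genes tested. The RNA came from C2C12, a line of mouse myoblasts that fuse into multinucleate myotubes in culture. The 3 myotube libraries came from cells kept 3 days at full confluence and then 5 days in 2% horse serum with insulin, transferrin, selenium and ethanolamine, and the 3 myoblast libraries came from sub-confluent cells in 10% fetal bovine serum, both in high-glucose medium with 4 mM glutamine. Serum, the supplement, cell density and differentiation differ together between the groups and cannot be told apart. Whether the 3 libraries of a group came from separate cultures is not stated, so the p-values below rest on a spread that may be technical.

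Mitochondria form a network whose shape is set by opposing membrane events. Mitofusins join outer membranes and Opa1 joins inner membranes, while the dynamin encoded by Dnm1l is recruited by adaptors such as Mff and Fis1 and constricts the organelle until it divides. Damaged or surplus mitochondria are enclosed by autophagosomes. One route starts with PINK1, which gathers on depolarised mitochondria and starts their marking with ubiquitin; the other uses receptors in the outer membrane, among them BNIP3, BNIP3L (also called NIX) and FUNDC1, which bind LC3-family proteins directly. Both fusion and mitophagy are known to take part in the remodelling of mitochondria during muscle differentiation.

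Libraries held between 7370169 and 8339589 counts in myotubes and between 10076945 and 11723881 counts in myoblasts. The 10 genes together took 0.116 to 0.119% of the counts in myotubes and 0.0872 to 0.0896% in myoblasts. The labelled states were checked with marker genes. All 8 myotube markers rose, with summed levels of 15467 to 16506 CPM (counts scaled to library size, with the library sizes adjusted by the trimmed mean of M values, TMM) in myotubes against 289 to 309 CPM in myoblasts, and all 6 markers of proliferating myoblasts fell, to 132 to 140 CPM in myotubes against 1890 to 1901 CPM in myoblasts. Markers of adipocytes, endothelial cells and blood cells summed to at most 1.71 CPM in any library, with Adipoq and Cd3e at 0 counts in all of them. The 4 osteoblast markers summed to 10.8 to 12.5 CPM in myotubes and 9.79 to 10.6 CPM in myoblasts, with Ibsp at 0. In bulk RNA a smaller number of expressing cells and less RNA per cell cannot be told apart.

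In myotubes 9 of the 10 genes rose and 0 fell by edgeR's quasi-likelihood test at an adjusted p of 0.05 over all genes tested, where 79.5% of all genes tested were called, 40.2% as higher and 39.2% as lower. Counted in either direction, the share of the 10 genes called was near that of all genes tested. The changes ranged from a log2 change of −0.08 for Bnip3l, which was not called, to 2.08 for Bnip3. Their median log2 change was 0.35, against 0.02 for all genes tested. For 9 of the 10 genes the myotube and myoblast libraries did not overlap, as for 80.5% of all genes tested. Pink1 and Bnip3, 2 of the 10, passed a test against a 2-fold change, which 21.6% of all genes tested passed, 12.4% as higher and 9.20% as lower. Scaling by total counts without TMM lowered the median change of all genes by 0.15 on the log2 scale, and with it 6 of the 10 genes were called higher and 1, Bnip3l, lower, while Mfn1, Mfn2 and Dnm1l were not called. Across all genes the split was 5146 higher and 5024 lower with TMM, and 4269 higher and 5935 lower without it.

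**Figure D1:**
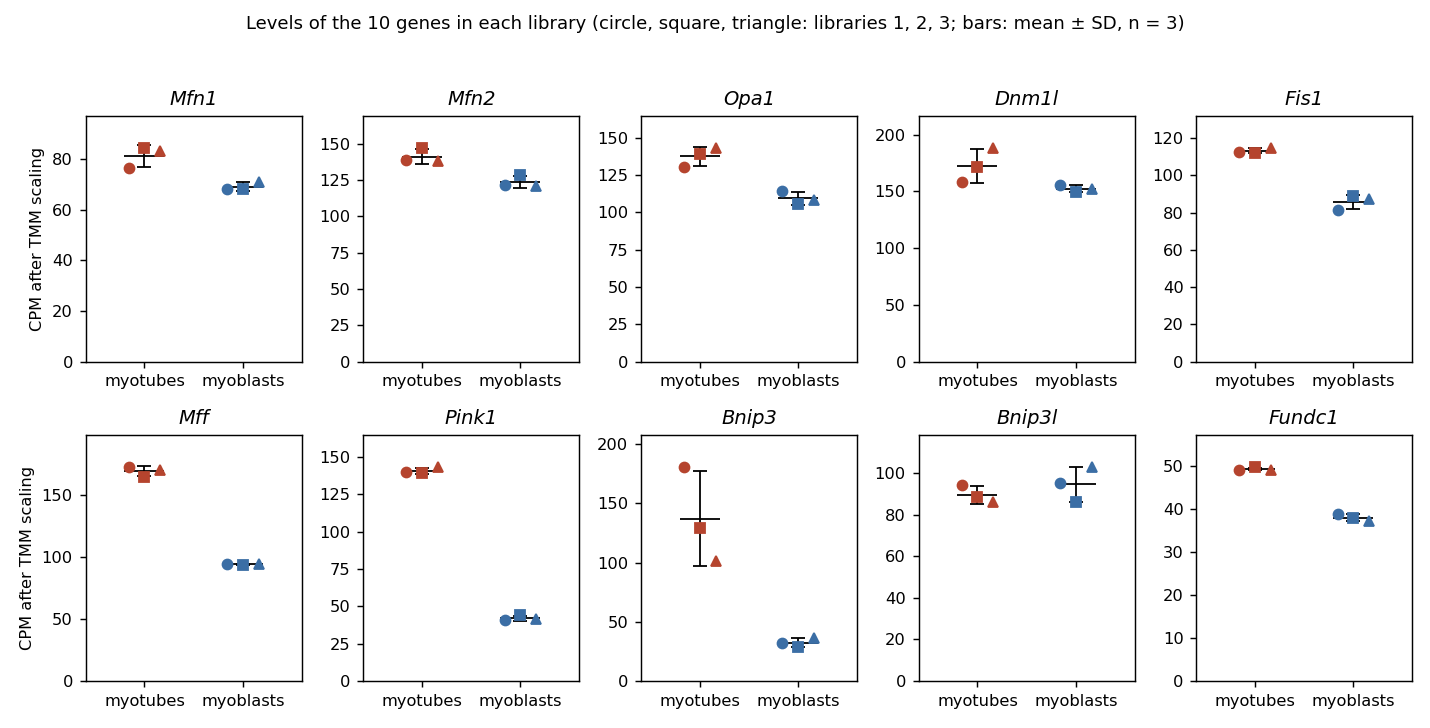
Level of each gene in each library, in CPM after TMM scaling; myotube libraries are red and myoblast libraries blue, and bars give the mean and SD (n = 3). The groups overlap for Bnip3l, and the myotube libraries of Bnip3 spread from 101 to 180 CPM.

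**Figure D2:**
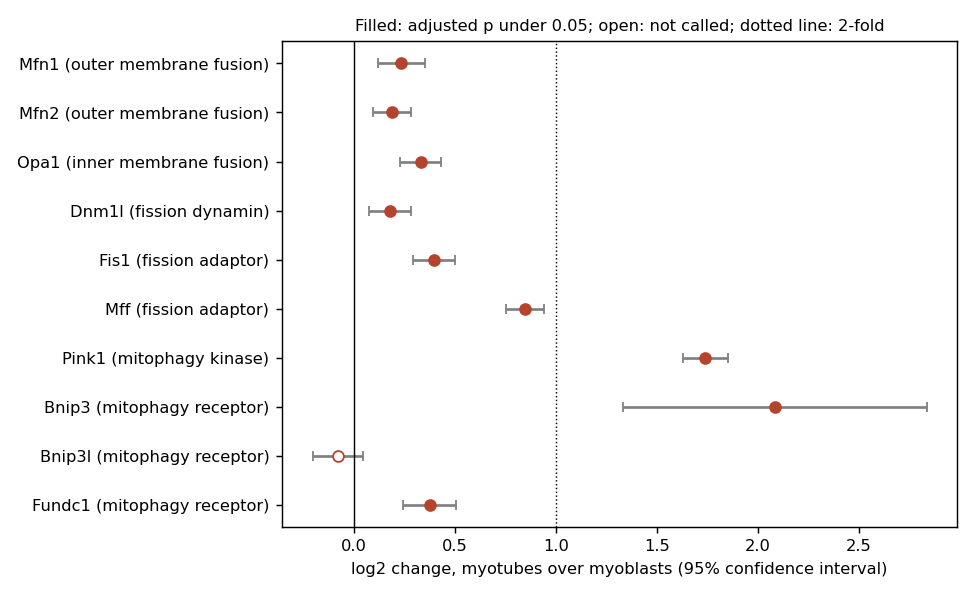
Log2 change of each gene, myotubes over myoblasts, with its 95% confidence interval; filled points passed an adjusted p of 0.05. The intervals of Pink1 and Bnip3 lie above the 2-fold line, that of Mff lies below it and above 0, and that of Bnip3l includes 0.

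The genes of outer membrane fusion rose by small amounts. Mfn1 (Entrez gene 67414, chromosome 3 at 32529443 to 32579225 in GRCm38, the assembly that mm10 names) had 76.4, 84.3 and 83.4 CPM in myotube libraries 1, 2 and 3, against 68.3, 68.0 and 71.0 CPM in myoblast libraries 1, 2 and 3. The lowest myotube library was above the highest myoblast library, and the log2 change was 0.24 (SE 0.06, adjusted p = 0.000411 by edgeR). Mfn2 (170731, chromosome 4 at 147873586 to 147904909), which also tethers mitochondria to the endoplasmic reticulum, had 138.6, 147.0 and 137.9 CPM in myotubes, against 121.6, 128.7 and 120.7 CPM in myoblasts. Its groups did not overlap either, and the log2 change was 0.19 (SE 0.05, adjusted p = 0.000654). Without TMM the changes were 0.09 for Mfn1 and 0.04 for Mfn2 (adjusted p = 0.135 and 0.390), so for both the call rests on the scaling. Over the 14 alternatives the adjusted p ranged from 7.33e-05 to 0.135 for Mfn1 and from 0.000357 to 0.390 for Mfn2.

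The balance between the mitofusins can be read within a library, free of any scaling. The count ratio of Mfn2 to Mfn1 was 1.74 ± 0.08 in myotubes and 1.79 ± 0.10 in myoblasts (SD, n = 3 each). The log2 ratio differed by −0.04 between the groups, less than the spread between replicates (exact two-sided permutation test, p = 0.5, adjusted p = 0.5 over 4 pairs).

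Opa1 (74143, chromosome 16 at 29579281 to 29663127), the inner membrane fusion dynamin that also holds cristae junctions closed, had 130.2, 139.1 and 142.9 CPM in myotubes, against 113.9, 105.4 and 108.5 CPM in myoblasts. Every myotube library was above every myoblast library, with a log2 change of 0.33 (SE 0.05, adjusted p = 1.04e-06). Its call held in all 14 alternatives, with a lowest log2 change of 0.19 when totals were used without TMM.

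The fission genes rose by unequal amounts, least in the dynamin and most in the adaptor Mff. Dnm1l (74006, chromosome 16 at 16312228 to 16359038) had 158.0, 171.2 and 188.1 CPM in myotubes, against 155.6, 149.8 and 152.0 CPM in myoblasts. The lowest myotube library lay just above the highest myoblast library. The log2 change was 0.18 (SE 0.05, adjusted p = 0.00238), and without TMM it was 0.03 and not called (adjusted p = 0.554, range over 14 alternatives 3.08e-05 to 0.554). Without myotube library 3 it was 0.11 (adjusted p = 0.0329). An annotated antisense gene, Gm49521, covers 4.67% of the exon bases of Dnm1l, and 6.20% of its 50-base windows have a copy in another gene.

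Fis1 (66437, chromosome 5 at 136953275 to 136966234), a tail-anchored outer membrane protein first described as a fission factor, had 112.7, 112.2 and 114.6 CPM in myotubes, against 81.5, 88.8 and 87.2 CPM in myoblasts. The groups lay apart, and the log2 change was 0.40 (SE 0.05, adjusted p = 8.02e-08), or 0.25 without TMM. Mff (75734, chromosome 1 at 82724890 to 82752390), the main receptor for the fission dynamin in mammalian cells, had 172.0, 164.3 and 170.2 CPM in myotubes, against 94.2, 93.4 and 93.8 CPM in myoblasts. After Bnip3 and Pink1 it changed most among the 10 genes, a 1.80-fold increase with a 95% confidence interval of 1.69 to 1.92, which lies below 2-fold (log2 change 0.85, SE 0.04, adjusted p = 3.54e-15). Of all genes tested, 34.3% had a larger absolute log2 change. An annotated antisense gene covers 2.00% of its exon bases.

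Ratios within libraries show the unequal change without any scaling. The ratio of Mff to Fis1 counts was 1.49 ± 0.03 in myotubes and 1.09 ± 0.05 in myoblasts, a log2 difference of 0.45. The ratio of Dnm1l to Opa1, the division dynamin over the inner membrane fusion dynamin, was 1.25 ± 0.06 in myotubes and 1.40 ± 0.03 in myoblasts, a log2 difference of −0.16. In both pairs the libraries of the groups did not overlap, and the exact permutation test (two-sided) returned p = 0.1 for each, or 0.133 adjusted over the 4 pairs. With 3 against 3 libraries 0.1 is the lowest p possible, so these comparisons cannot pass 0.05.

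**Figure D3:**
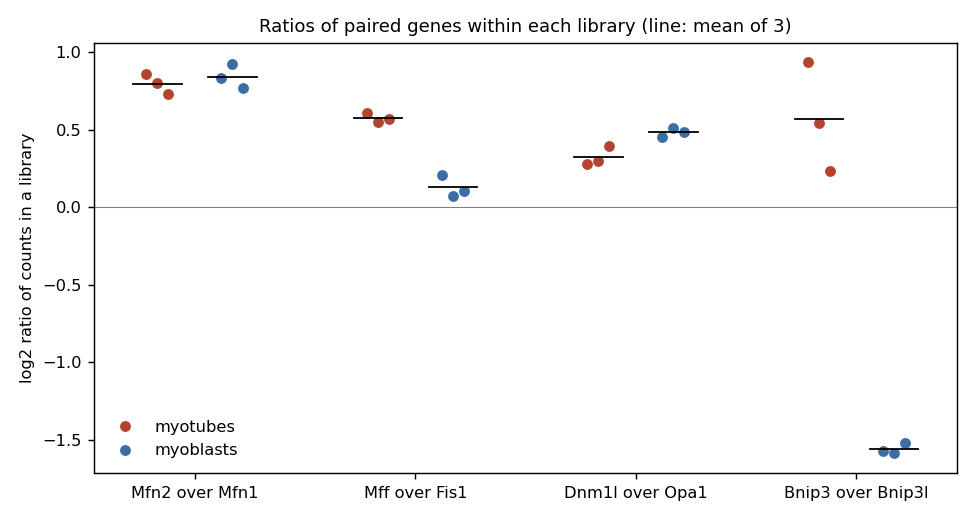
Log2 ratio of the counts of 2 genes within each library, for 4 pairs; red points are myotube libraries, blue points myoblast libraries, and lines are means of 3. The ratio of Bnip3 to Bnip3l is 1.18 or more in the myotube libraries and 0.349 or less in the myoblast libraries before taking logs, whereas the ratios of Mfn2 to Mfn1 overlap.

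Pink1 (68943, chromosome 4 at 138313409 to 138326296), the kinase that marks damaged mitochondria, had 139.9, 139.0 and 143.0 CPM in myotubes, against 40.7, 44.0 and 41.5 CPM in myoblasts. The myotube libraries differed from each other by 1.03-fold at most, and the groups lay far apart. The increase was 3.34-fold, with a 95% confidence interval of 3.10 to 3.60 (log2 change 1.74, SE 0.05, adjusted p = 3.19e-20). It passed the test against a 2-fold change (adjusted p = 4.05e-13 by glmTreat) in the main analysis and in all 12 alternatives of that test. Of all genes tested, 13.5% had a larger absolute log2 change.

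Bnip3 (12176, chromosome 7 at 138890836 to 138909506) had the largest change of the 10 genes and the widest spread. It had 180.4, 129.1 and 101.4 CPM in myotube libraries 1, 2 and 3, against 32.2, 28.7 and 36.0 CPM in myoblast libraries 1, 2 and 3. All myotube libraries were above all myoblast libraries, but myotube library 1 was 1.78 times myotube library 3. The increase was 4.24-fold with a 95% confidence interval of 2.51 to 7.13 (log2 change 2.08, SE 0.28, adjusted p = 0.00185). The 2-fold test passed with an adjusted p of 0.0202 but lost its call in 5 of 12 alternatives. It was lost without myotube library 2 (adjusted p = 0.0643) and without myoblast library 1 (0.0783), 2 (0.0853) or 3 (0.0635). It was also lost with the replicate number as a block (0.0712). The range over the 12 alternatives was 4.28e-07 to 0.0853. Without myotube library 1 the log2 change was 1.84 and the adjusted p of the 2-fold test 4.28e-07.

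The count of Bnip3 carries an uncertainty of identity. Of the 50-base windows of its longest coding transcript, 62.4% have an exact copy in a transcript of another gene, 48.9% in genes at other loci. The antisense gene Gm45507 covers 22.3% of its exon bases. The 6 genes that share windows with it have no row in the count table under those symbols. The sources used here do not say how reads with several matches were counted, and the level of Bnip3 is uncertain for that reason.

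The genes past the 2-fold test, Bnip3 and Pink1, are shown here with the 250 bases before their annotated start (RefSeq, GRCm38.p6, minus strand, printed 5′ to 3′), because BNIP3 is a textbook target of hypoxia-inducible factors. Capitals mark matches on either strand to the core letters of a hypoxia response element, ACGTG or GCGTG. The windows lie at chr7:138909507-138909756 for Bnip3 and chr4:138326297-138326546 for Pink1.
Bnip3: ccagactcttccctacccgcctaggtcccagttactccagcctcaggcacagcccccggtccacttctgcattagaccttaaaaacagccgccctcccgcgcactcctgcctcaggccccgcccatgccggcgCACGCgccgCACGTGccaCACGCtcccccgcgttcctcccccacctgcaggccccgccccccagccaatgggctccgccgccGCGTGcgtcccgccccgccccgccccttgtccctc
Pink1: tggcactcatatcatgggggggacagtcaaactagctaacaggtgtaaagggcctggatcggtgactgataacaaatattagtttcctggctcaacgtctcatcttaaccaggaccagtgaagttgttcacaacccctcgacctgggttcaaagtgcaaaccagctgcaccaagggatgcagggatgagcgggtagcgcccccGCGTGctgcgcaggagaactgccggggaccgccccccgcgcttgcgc
The Bnip3 window held 5 matches, starting 117, 108, 107, 99 and 35 bases before the start. Those at 108 and 107 overlap, being both strands of CACGTG. The Pink1 window held 1 match, at 47 bases. At least 1 match was present in 38.6% of the 32851 promoter windows of that length in the table, and 5 or more in 1.01%. Those windows were of any base composition, while 72.4% of the bases of the Bnip3 window were G or C. CACGTG is also the core of another motif, the CLEAR site. It was in 6.02% of all windows and, among these genes, in that of Bnip3 only. Of the 14 windows of these genes in the table, which cover 9 of the 10 genes, 6 held a match, in Bnip3, Pink1, Mfn2 and Dnm1l. Windows of Mfn2 from neighbouring starts overlap and share a match, so the 6 windows are not independent. A FOXO site, TGTTTAC on either strand, was in 0 of the 14 windows and in 3.17% of all windows. A match of letters describes the sequence and does not show binding.

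Of the receptors, Bnip3 and Fundc1 rose and Bnip3l was not called. Bnip3l (12177, chromosome 14 at 66985238 to 67008877), the close relative of Bnip3 that is best known for clearing mitochondria from maturing red blood cells, had 94.5, 88.5 and 86.3 CPM in myotubes, against 95.4, 86.1 and 103.0 CPM in myoblasts. The groups overlapped, and the difference was not called (log2 change −0.08, SE 0.06, 95% confidence interval −0.20 to 0.05, adjusted p = 0.239). It was called lower in 3 of 14 alternatives, where the range of the adjusted p was 0.00167 to 0.795. These were total counts (log2 change −0.22, adjusted p = 0.00167), every gene with a count kept (−0.12, adjusted p = 0.0382) and no myoblast library 2 (−0.15, adjusted p = 0.0363). A pseudogene, Bnip3l-ps, shares 23.4% of the windows of Bnip3l. It had 211, 190 and 172 counts in myotubes, against 219, 252 and 215 counts in myoblasts. Bnip3l itself had 662, 654 and 683 counts in myotubes and 1062, 1059 and 1093 in myoblasts. These counts are not scaled for library size, and the myotube libraries held fewer counts in total, so they give no direction of change.

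The order of Bnip3 and Bnip3l differed between the groups. The ratio of Bnip3 to Bnip3l counts was 1.91, 1.46 and 1.18 in myotube libraries 1, 2 and 3, against 0.337, 0.333 and 0.349 in myoblast libraries 1, 2 and 3. Per kilobase of exon, Bnip3 had 79.6, 57.01 and 44.8 CPM in the myotube libraries, where Bnip3l had 24.5, 22.9 and 22.4. In the myoblast libraries Bnip3 had 14.2, 12.7 and 15.9 CPM per kilobase and Bnip3l 24.7, 22.3 and 26.7. As counted, Bnip3 was the higher of the pair in every myotube library and the lower in every myoblast library. Since 48.9% of the windows of Bnip3 and 23.4% of those of Bnip3l have a copy at other loci, their order within a group is uncertain. The log2 count ratio differed by 2.13 (exact two-sided permutation test, p = 0.1, the smallest possible here, adjusted p = 0.133), and from 1.95 to 2.30 when single libraries were left out.

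Fundc1 (72018, chromosome X at 17519967 to 17572329), a receptor whose binding to LC3 is controlled by phosphorylation, had 49.1, 49.7 and 49.1 CPM in myotubes, against 38.8, 37.9 and 37.2 CPM in myoblasts. The libraries of each group lay close together and apart from the other group, with a log2 change of 0.38 (SE 0.06, adjusted p = 7.73e-06) that was called in all 14 alternatives and was 0.23 without TMM.

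Levels of different genes were compared per kilobase of exon, as mean ± SD of 3 libraries. With the length of all annotated exons, Fis1 was highest in both groups, at 66.0 ± 0.72 CPM per kilobase in myotubes and 50.1 ± 2.24 in myoblasts. In myotubes Bnip3 (60.5 ± 17.7) and Pink1 (52.6 ± 0.79) followed. Fis1 was above Pink1 in every myotube library, while the place of Bnip3 beside them could not be set beyond its spread. Dnm1l (33.1 ± 2.90), Mfn2 (27.2 ± 0.97), Bnip3l (23.3 ± 1.10), Fundc1 (20.95 ± 0.14), Opa1 (17.4 ± 0.83), Mff (17.3 ± 0.41) and Mfn1 (13.3 ± 0.71 CPM per kilobase) came next, with Opa1 and Mff indistinguishable.

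In myoblasts the per-kilobase order after Fis1 was Dnm1l (29.3 ± 0.56), Bnip3l (24.6 ± 2.19), Mfn2 (23.8 ± 0.85), Fundc1 (16.1 ± 0.34), Pink1 (15.7 ± 0.64), Bnip3 (14.3 ± 1.61), Opa1 (13.9 ± 0.55), Mfn1 (11.3 ± 0.27) and Mff (9.61 ± 0.04). There Bnip3l could not be told from Mfn2, nor Fundc1 from Pink1, nor Bnip3 from Opa1, beyond their SD. Bnip3 could not be told from Pink1 there either. Both lay above Dnm1l in every myotube library and below it in every myoblast library. Ranks depend on the length used, most for Mff: its exons span 9.76 kilobases in all annotated transcripts and 2.09 in its longest coding transcript, and with the shorter length it had rank 2 in both groups, at 80.9 ± 1.92 CPM per kilobase in myotubes and 44.9 ± 0.18 in myoblasts.

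The spread of Bnip3 among the myotube libraries set it apart from the other 9 genes. Its coefficient of variation was 29.2% in myotubes, against 0.655 to 8.75% for the other 9 genes, and lay above that of 99.4% of the 9821 tested genes that averaged 10 CPM or more, whose median was 5.61%. In myoblasts the coefficient of the 10 genes ranged from 0.407 to 11.3%, the highest being that of Bnip3. Among the others, Bnip3l was also highest in myotube library 1 and lowest in library 3, while Dnm1l and Opa1 were lowest in library 1 and highest in library 3.

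Hypoxia-inducible genes varied in the same libraries. Of 24 such genes, listed after the spread of Bnip3 had been seen, 20 were highest in myotube library 1, and 19 were highest in library 1, intermediate in library 2 and lowest in library 3. Of the tested genes averaging 10 CPM or more, 18.8% had that order. The list of 24 had no such cut: Adm, which had the order, and Ankrd37, which did not, averaged under 10 CPM. Of the 24, and chosen with their values known, the membrane carbonic anhydrase gene Car9 had 219.5, 174.5 and 112.9 CPM in myotube libraries 1, 2 and 3, and the pyruvate dehydrogenase kinase gene Pdk1 196.1, 164.7 and 118.1 CPM. Their ratios of library 1 to library 3, 1.94 and 1.66, were the largest among the 24. That ratio was 1.07 for Vegfa. It was 0.88 for Hk2, 0.94 for Kdm3a, 0.97 for Pfkp and 0.99 for Ddit4, which were not highest in library 1. Between the groups 16 of the 24 rose and 2 fell, with a median log2 change of 0.77, where 40.2% of all genes tested rose and 39.2% fell. The 2 that fell were Slc2a1 (log2 change −1.23) and Pfkl (−0.76). The mRNA of Hif1a, the oxygen-regulated subunit of a hypoxia-inducible factor, also named with its values known, was not called, at 254.6 CPM on average in myotubes and 264.2 CPM in myoblasts (log2 change −0.05). The part of this variation in the change of Bnip3 was not tested.

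**Figure D4:**
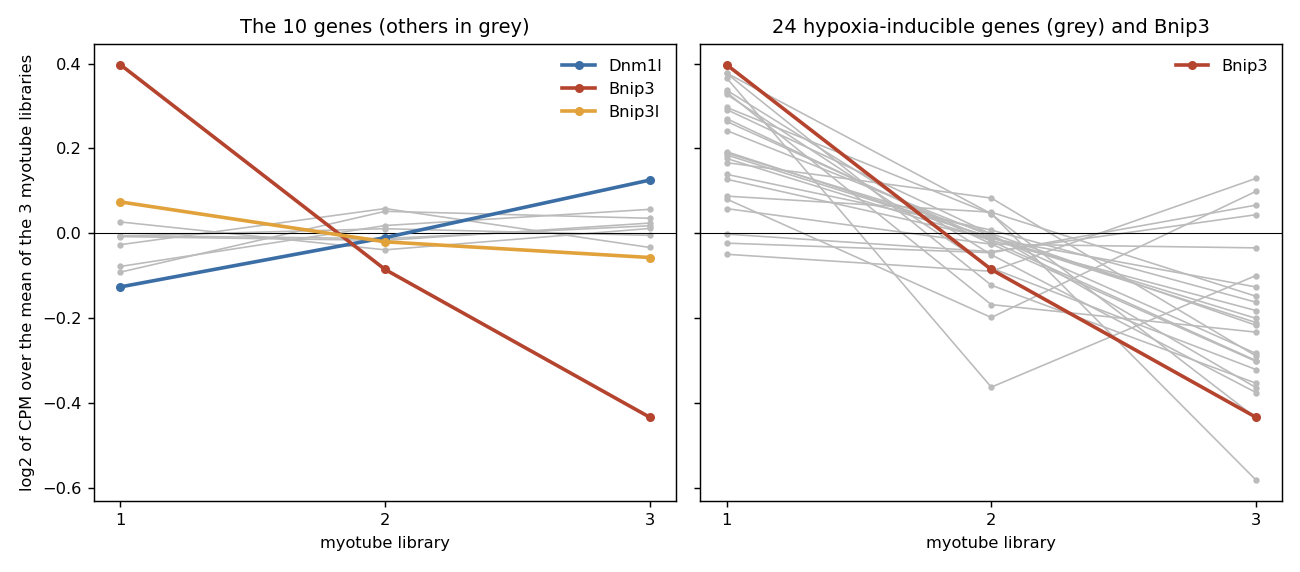
Log2 of CPM over the mean of the 3 myotube libraries, one line per gene, for the 10 genes (left) and for 24 hypoxia-inducible genes with Bnip3 (right). Bnip3 has 180 CPM in library 1 and 101 CPM in library 3, and 20 of the 24 grey genes on the right are highest in library 1.

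The 5 genes whose levels lay closest to those of Bnip3 over the 6 libraries, by Euclidean distance of centred log2(CPM + 1) among 9779 genes, were Ero1l (distance 0.34), Mgarp (0.36), Tmem45a (0.41), Gem (0.41) and Cmbl (0.42). Ero1l encodes an oxidase of the endoplasmic reticulum and Mgarp a mitochondrial protein. Their log2 changes were 2.09, 2.13, 2.62, 2.38 and 2.32. The 6 libraries form 2 clusters, so no correlation is given.

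Genes that act around these 10 are given by list, beside the 79.5% of all genes tested that were called, 40.2% as higher and 39.2% as lower. Of 16 inner membrane proteases, prohibitins and cristae organisers, which cut Opa1 or shape the membrane in which it works, 8 rose and 4 fell, with a median log2 change of 0.36. The share called, 75%, was near that of all genes tested. The split without TMM was 8 higher and 6 lower, with a median of 0.22. Micos13, a subunit of the complex at cristae junctions, had 98.2 ± 7.06 CPM in myotubes and 37.0 ± 0.50 CPM in myoblasts (log2 change 1.40, SE 0.06), and Apool, another subunit, had a log2 change of 1.14. The prohibitin gene Phb fell by 0.51, but 47.3% of its windows have a copy in another gene. Of the proteases that cut Opa1, Yme1l1 rose by 0.40, and Oma1, with a log2 change of −0.15, was not called (adjusted p = 0.212). Both are named with their values known.

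Of 15 tested fission and fusion factors beyond the 10 genes, 9 rose and 5 fell, with a median of 0.28. Called were 93.3%, against 79.5% of all genes tested. The split without TMM was 8 higher and 5 lower, with a median of 0.14. Mief2, which recruits the fission dynamin to the outer membrane, had 55.0 ± 0.61 CPM in myotubes and 12.01 ± 0.58 CPM in myoblasts (log2 change 2.20, SE 0.08, adjusted p = 1.45e-18), while its relative Mief1, named after its values were seen, fell by 0.21. Mtfr1l rose by 0.66. Mtfr2 fell by 3.50, to 1.09 ± 0.65 CPM in myotubes against 12.3 ± 0.88 CPM in myoblasts, with 24 counts in the myotube group. Gdap1 and Pld6 had too few counts to be tested.

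Of 20 tested mitophagy adaptors, kinases and deubiquitinases 11 rose and 5 fell, with a median of 0.21, and without TMM 8 rose and 8 fell. The share called, 80%, was near the 79.5% of all genes tested. Fbxl4, part of a ubiquitin ligase that keeps the protein levels of BNIP3 and NIX low, had 38.5 ± 3.31 CPM in myotubes and 16.2 ± 1.79 CPM in myoblasts (log2 change 1.25, SE 0.09). Nipsnap1, a matrix protein that marks damaged mitochondria, fell to 4.11 ± 0.90 CPM in myotubes against 12.4 ± 1.66 CPM in myoblasts. The receptor gene Bcl2l13 rose by 1.03 and the adaptor gene Sqstm1 fell by 0.57; this pair was named with the values in view.

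Of 29 genes of the core autophagy machinery 18 rose and 5 fell, with a median of 0.36, and without TMM 15 rose and 8 fell. The share called, 79.3%, was near the 79.5% of all genes tested. Map1lc3a, an LC3 protein of the autophagosome membrane, had 327.8 ± 10.8 CPM in myotubes and 49.9 ± 3.24 CPM in myoblasts (log2 change 2.72, SE 0.05, adjusted p = 6.58e-25). The protease gene Atg4a rose by 1.98, but 63.6% of its windows have a copy elsewhere. Atg2a, which carries lipid to the growing membrane, fell by 0.63.

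Of 14 transcription factors and coactivators linked to the 10 genes 8 rose and 4 fell, with a median of 0.29. Called were 85.7%, against 79.5% of all genes tested. The split without TMM was 7 higher and 5 lower, with a median of 0.15. Ppargc1a, the coactivator PGC-1α of mitochondrial biogenesis and of Mfn2, had 4.74 ± 0.72 CPM in myotubes and 0.36 ± 0.17 CPM in myoblasts (log2 change 3.70, SE 0.34). Epas1, which encodes the second hypoxia-inducible factor subunit, had 3.31 ± 0.15 CPM in myotubes and 0.18 ± 0.09 CPM in myoblasts, with 74 counts in the myotube group and 6 in the myoblast group (log2 change 4.13, SE 0.41). Ppargc1a had 106 counts in the myotube group and 12 in the myoblast group, so both changes rest on few myoblast counts. Trp53 fell by 1.03. Tfeb, a regulator of autophagy and lysosome genes, rose by 1.97, while Tfe3, of the same list, fell by 0.90. Tfe3 had 49.4 CPM in myotubes and 91.7 CPM in myoblasts, and Tfeb 35.3 and 9.02 CPM. Both are named after their values were seen.

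**Figure D5:**
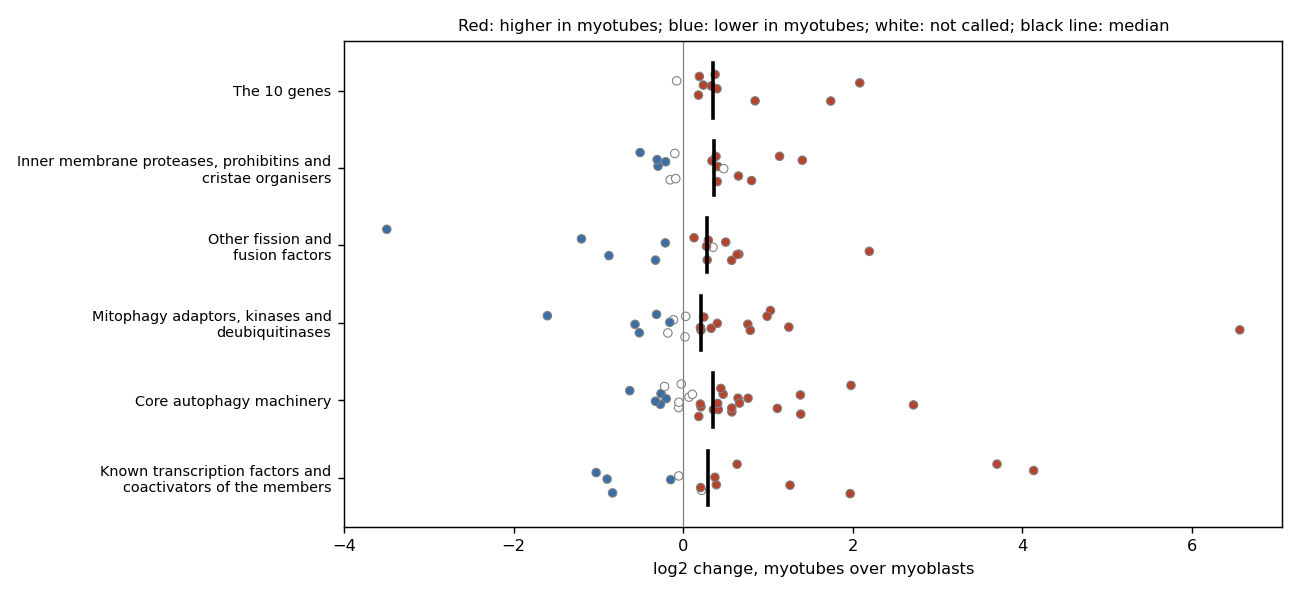
Log2 change, myotubes over myoblasts, of the 10 genes and of the tested genes of 5 related lists; each point is a gene, red where it was called higher in myotubes, blue where called lower and white where not called, and black lines are medians. The medians lie between 0.21 and 0.36, and points of every list other than the 10 genes fall in both colours.

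The increases of the 10 genes were set beside 8 genes of mitochondrial content, such as the porins and citrate synthase, chosen after the values were seen. Of these 4 rose and 3 fell, with a median log2 change of 0.15, where 40.2% of all genes tested rose and 39.2% fell. The porin Vdac1 rose by 0.35, close to Opa1, Fundc1 and Fis1, while citrate synthase (Cs) fell by 0.19. The matrix chaperonin Hspd1 fell to 130.02 CPM in myotubes against 260.90 CPM in myoblasts. The changes of Pink1, Bnip3 and Mff were the ones among the 10 genes of similar size to or larger than that of the porin Vdac3, which rose by 0.86. Whether the 10 genes differ from these genes was not tested.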

How the data were processed

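The deposited table holds raw gene counts, not normalized, for 6 mRNA libraries made after TRIzol extraction with a stranded kit, per the labels' protocols. STAR, featureCounts, fastp and the mm10 build are named in the submitters' processing notes; versions, strand setting and the counting of reads with several matches are not given there. Groups come from sample titles. All value columns were used.

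Counts were tested with edgeR 4.0.16 in R 4.3.3: filterByExpr (minimum count 10, minimum total 15), TMM, the robust quasi-likelihood F test and glmTreat against a log2 change of 1, with Benjamini-Hochberg adjustment over 12800 genes and a threshold of 0.05. Each SE was derived from the F statistic, and 95% intervals use its degrees of freedom. The fit was tested on simulated counts with the same dispersion for every gene and few changed genes, as many up as down. These settings differ from the data, so that test does not bear on calls that rest on the scaling or on the spread of Bnip3. The lists got counts and medians only. Total counts per library (7370169 to 11723881) set the precision. No pair of replicates was identical. Chi-square per degree of freedom was 1.35 to 1.77 for pairs of myoblast libraries and 1.78 to 3.22 for pairs of myotube libraries. The highest was that of myotube libraries 1 and 3.

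The 10 genes and the lists were chosen with earlier results of these data known. Named were the 10 genes; per list, of called genes at 1 CPM or more, 2 that moved most in the commoner direction and 1 in the other; and the 5 genes nearest to the most changed member. A gene that this rule names is not reported here. Exon lengths and copies (50-base windows, both strands) came from GENCODE M21 with Python 3.11.15, coordinates and promoters from RefSeq. The 14 alternatives used total counts, size factors or the Wald test of DESeq2 1.42.0, limma-voom (limma 3.58.1), no filter, 1 CPM in 3 libraries, a replicate block, thinning to the smallest library and leaving out each library.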

Additional observations from a re-analysis of the deposited data

How the results depend on the processing

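Of the 140 log2 changes of the 10 genes recomputed under the 14 alternatives, 134 kept their direction and their side of the threshold, 3 lost the call, 3 gained one and 0 changed sign; the 6 are given in the report. The number of the 10 genes called ranged from 7 with total counts to 10, and was 9 to 10 when a library was left out. The number past the 2-fold test was 1 with the replicate block, where Bnip3 had an adjusted p of 0.0712, and 1 to 2 when a library was left out, where Bnip3 was the gene lost; the cause was not tested. The block gave 10161 calls over all genes against 10170 without it, where deviations of same-numbered libraries had correlations of 0.0077, 0.043 and 0.027, so the number was not taken to pair them, and all 6 libraries correlated best with their own number, a hint from the data and not from the design; it changed no other call among the 10 genes. Over all genes the calls ranged from 9875 to 10153 when a library was left out. With a library left out, the group it came from has 2 libraries. Depth limits the low genes, such as Epas1 and Ppargc1a.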
